A study of Mus musculus with 10 samples.

Results

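Superoxide dismutases and peroxidases are the enzymes that remove reactive oxygen species, and 10 of their mouse genes are described here: Sod1, Sod2, Sod3, Cat, Gpx1, Gpx3, Gpx4, Prdx1, Prdx3 and Prdx4. They were chosen by name out of 21887 protein-coding genes, with earlier results of these data known. All covered CpGs inside each gene and up to 2 kb beyond either end were taken, and all 10 genes had the 3 or more distinct CpGs asked for. The data were reduced representation bisulfite sequencing (RRBS) of testis DNA, a method that enriches CpG-rich fragments and reads unmethylated cytosines as thymines, so that the share of reads still showing cytosine gives the methylation level. There were 5 arsenic libraries, whose treatment is labelled as arsenic, and 5 control libraries, both from F2 mice. The labels do not give the ancestor that received arsenic, the dose, the strain or the age, nor whether each library of a group is a separate animal, so the p-values below take in only the spread seen between libraries, part of which may be technical.

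Superoxide dismutases turn superoxide into hydrogen peroxide, and catalase, glutathione peroxidases and peroxiredoxins then reduce the peroxide, with glutathione or thioredoxin as the electron source for the last 2 families. In the testis the group is known above all through Gpx4, a selenoprotein that protects developing sperm from lipid peroxidation and becomes part of the structure of the mature sperm. DNA methylation at a CpG-rich gene start is generally low where the gene can be transcribed, while the body of the same gene is usually methylated.

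The deposited table held 1988759 cytosines on 1407384 CpGs, and each cytosine had at least 10 reads in every library. Total reads were highest in arsenic library 3, at 100355708, and lowest in control library 4, at 69771871. Median coverage was 29, 27 and 29 in control libraries 2, 4 and 5, and 35 to 40 in all other libraries. The mean level of the 335958 CpGs within 1 kb of a gene end was 11.5% to 11.9% in the arsenic libraries and 11.6% to 13.1% in the control libraries, with control libraries 4 and 5 at 12.4% and 13.1%. Genes used by germ cells, whose starts tend to be less methylated there than in somatic cells, averaged 15.9% to 21.5% over 7 starts in the arsenic libraries and 18.5% to 23.6% in the control libraries. The paternally methylated region upstream of H19, with 3 covered CpGs, was at 95.6% ± 2.17 in arsenic and 95.2% ± 2.85 in control libraries (SD, n = 5 each). Maternally methylated imprinted ends, which male germ cells lack and somatic cells carry on 1 allele, averaged 10.1% to 11.9% over 6 ends in the arsenic libraries and 7.22% to 17.3% in the control libraries. Single ends varied more between libraries: the Plagl1 start was at 0% in arsenic library 5 and control library 5, and at 27.2% in control library 3. The far end of Nnat, not in this average, was at 18.2% ± 11.8 in arsenic and 15.3% ± 7.91 in control libraries (SD, n = 5 each). The testis label was thus met by a methylated H19 region and low imprinted ends in both groups, although neither the imprinted ends nor the germ cell genes averaged 0. In such bulk DNA, a change in the mix of cells and a change within cells cannot be told apart.

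The promoter sequences of 4 members are shown because they carry the contrasts described below: the start with the smallest p (Sod1), a low start whose group means lay within each other's spread (Cat), a somewhat higher start (Gpx3) and the outermost start of a gene that was methylated there (Gpx4). Each runs from 250 bases before to 50 bases after the gene start, 5′ to 3′ along the gene, from RefSeq on GRCm38.p6, the assembly behind mm10, and the capitals mark CpGs covered in all 10 libraries.
Sod1, chr16:90220512-90220811, plus strand: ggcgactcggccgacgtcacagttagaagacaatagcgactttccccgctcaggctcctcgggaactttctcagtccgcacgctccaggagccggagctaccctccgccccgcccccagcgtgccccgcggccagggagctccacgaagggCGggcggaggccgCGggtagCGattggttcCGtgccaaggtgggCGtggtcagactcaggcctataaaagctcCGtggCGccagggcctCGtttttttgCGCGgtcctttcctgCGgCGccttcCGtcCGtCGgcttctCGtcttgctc
Cat, chr2:103485104-103485403, minus strand: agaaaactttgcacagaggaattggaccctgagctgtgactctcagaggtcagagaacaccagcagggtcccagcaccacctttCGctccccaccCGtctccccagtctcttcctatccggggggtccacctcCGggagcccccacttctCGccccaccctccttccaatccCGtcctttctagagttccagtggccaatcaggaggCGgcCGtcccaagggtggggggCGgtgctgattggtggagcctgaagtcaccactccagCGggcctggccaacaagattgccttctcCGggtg
Gpx3, chr11:54902604-54902903, plus strand: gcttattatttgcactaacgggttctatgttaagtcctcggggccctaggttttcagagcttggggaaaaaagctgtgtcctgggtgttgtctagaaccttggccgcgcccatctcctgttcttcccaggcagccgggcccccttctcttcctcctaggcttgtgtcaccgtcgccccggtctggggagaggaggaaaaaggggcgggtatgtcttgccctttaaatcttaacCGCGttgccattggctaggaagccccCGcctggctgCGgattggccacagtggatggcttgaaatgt
Gpx4, chr10:80046916-80047215, plus strand: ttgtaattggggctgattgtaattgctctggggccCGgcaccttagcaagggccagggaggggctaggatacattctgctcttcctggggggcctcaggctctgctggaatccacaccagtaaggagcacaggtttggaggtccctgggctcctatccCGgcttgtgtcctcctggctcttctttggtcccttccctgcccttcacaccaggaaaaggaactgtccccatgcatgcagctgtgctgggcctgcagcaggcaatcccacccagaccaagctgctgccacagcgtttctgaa
Of the 34 CpGs in the Sod1 promoter, 16 were covered, against 10 of 11 in Cat, 4 of 13 in Gpx3 and 2 of 3 in Gpx4. RRBS usually cuts at CCGG, which occurred 1 time in Sod1, 3 times in Cat, and 2 times each in Gpx3 and Gpx4, and which 52.8% of the 32851 RefSeq mouse promoters of the same length hold. The Sp1 box GGGCGG, counted on both strands with overlaps allowed, occurred 4 times in Sod1, 1 time each in Cat and Gpx3, and 0 times in this Gpx4 promoter, against a share of 35.7% of all promoters with at least 1. The letters TGACNNNGC, the core of the antioxidant response element, were found 1 time each in Sod1 and Prdx1 and in no other of the 9 members with a promoter sequence. They are found in 12.4% of all promoters. A TATAAA box was found in Sod1, Prdx1 and Prdx3, and in 13.6% of all promoters. These are matches of letters only.

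Methylation was summarised per library as the methylated share of all reads in a window: the gene ends (within 1 kb of a start or far end), the body between them, and the flanks from 1 to 2 kb outside. Windows needed 3 CpGs. The group difference was tested with a quasi-binomial logistic model fitted to all windows of a kind, which allows for more spread between libraries than read counting gives, and a window was called at a Benjamini-Hochberg adjusted p under 0.05. Of 17721 gene ends tested, 0 were called (0.0%), and 1123 (6.34%) had an unadjusted p under 0.05, with 0 members among the calls. With limma, fitted to the log2 ratio of the methylated and unmethylated read numbers, 1 gene end was called and it was not a member. Levels below are percentages of reads, values after ± are SDs over the 5 libraries of a group, differences are arsenic minus control in percentage points and weighted by reads, and libraries are given in the order of their numbers.

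Of the 10 genes, 7 were measured at a start, and these starts were low in both groups, as are most gene starts in the table, whose median was 2.72% over 10223 starts. In the arsenic libraries the order of mean levels was Gpx1, Gpx3, Cat, Prdx1, Sod2, Sod1 and Prdx3. In the control libraries it was Gpx1, Gpx3, Sod1, Sod2, Prdx1, Cat and Prdx3. For every pair of neighbours in either order the ranges of the mean ± SD overlapped. With its higher upstream CpGs included, Gpx1 was in percentile 82.8 of all gene starts by its mean level over 10 libraries, Gpx3 in 77.8 and Prdx3 in 1.996.

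**Figure D1:**
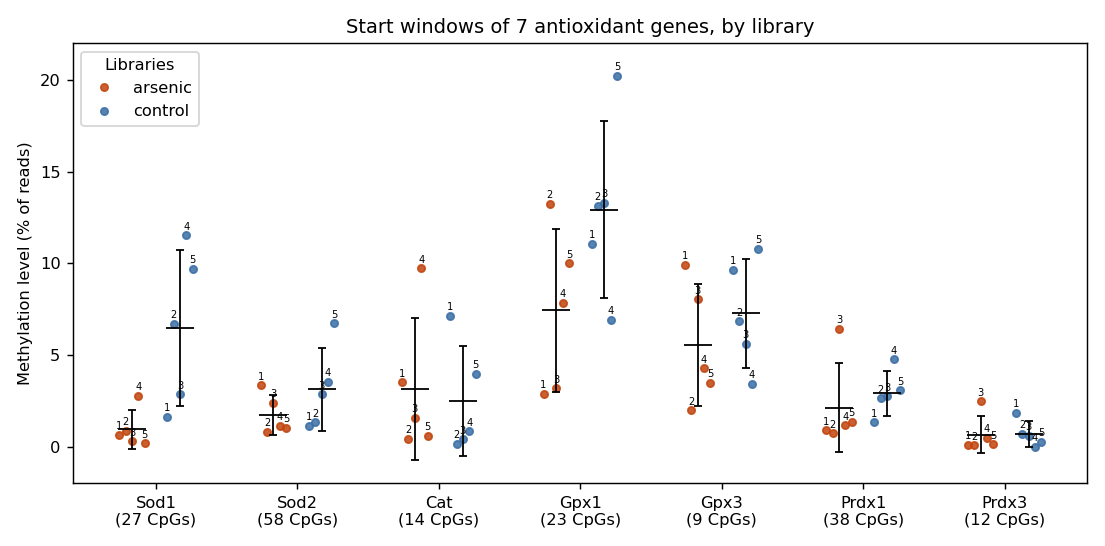
Methylation level (% of reads, linear axis) of the 7 member gene starts in each library, arsenic in orange and control in blue, numbered by library, with the mean as a line and the SD as a bar (n = 5 each). Sod1 averaged 0.958% in arsenic and 6.49% in control libraries, and the ranges of the groups overlapped in every gene.

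Among the superoxide dismutases, Sod1 had the smallest p of all member windows. Sod1 encodes the copper-zinc enzyme of the cytosol and lies on chromosome 16, 90220762 to 90226333, with all 27 covered CpGs of its locus at the start. Its start was at 0.648%, 0.859%, 0.305%, 2.79% and 0.190% in the arsenic libraries, and at 1.63%, 6.72%, 2.87%, 11.5% and 9.72% in the control libraries. Control libraries 2 to 5 were above every arsenic library, and control library 1 lay below arsenic library 4, so the groups overlapped. The highest, control libraries 2, 4 and 5, were also those with the lowest median coverage over the table, and the part of depth was not tested. The means were 0.958% ± 1.06 in arsenic and 6.49% ± 4.26 in control libraries (SD, n = 5 each). The difference was -5.25 points (p = 0.00319, adjusted p = 0.591, quasi-binomial model), and the window did not pass. Without control libraries 4 and 5 the difference was -2.55 points (quasi-binomial p = 0.0368, adjusted p = 0.777). With a minimum coverage of 20, which left 11 of the 27 CpGs, it was -2.20 points (quasi-binomial p = 0.238). That filter changed the set of CpGs, so it does not compare depths at the same positions. In control library 4 the 17 CpGs nearest the start had 10 to 31 reads each, and the other 10 CpGs had 27 to 104.

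The 27 CpGs of the Sod1 start fell into a pair of runs, and the methylated reads were spread differently over them. The first run held 17 CpGs from 99 bp before to 63 bp after the gene start, 16 of them the capitals in the printed promoter. There, 7 of 3492 calls were methylated in the arsenic libraries and 265 of 3022 in the control libraries, and 13 of the 17 CpGs had no methylated read in any arsenic library. Its level was 0.253%, 0.446%, 0.269%, 0% and 0% in the arsenic libraries, and 0.461%, 10.9%, 3.33%, 10.03% and 17.1% in the control libraries. Control library 1 was level with the highest arsenic library, and control libraries 2 to 5 were well above every arsenic library. In control libraries 2 and 5 all 17 CpGs had a methylated read, in control library 4 it was 14, in control library 3 it was 7, and in control library 1 it was 1. In the arsenic libraries the count was 2, 2, 1, 0 and 0. CpGs of a run share reads, so these counts are not independent of each other.

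The second run of Sod1 held 10 CpGs from 510 to 654 bp after the start. It was at 0.943%, 1.19%, 0.334%, 4.44% and 0.317% in the arsenic libraries, and at 2.40%, 2.26%, 2.53%, 12.0% and 1.12% in the control libraries. Here the groups overlapped more, with arsenic library 4 above every control library but library 4. The methylation of control library 5 in the first run, 17.1%, thus had no counterpart in the second, 1.12%, while control library 4 was at 10.03% in the first and 12.0% in the second.

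**Figure D2:**
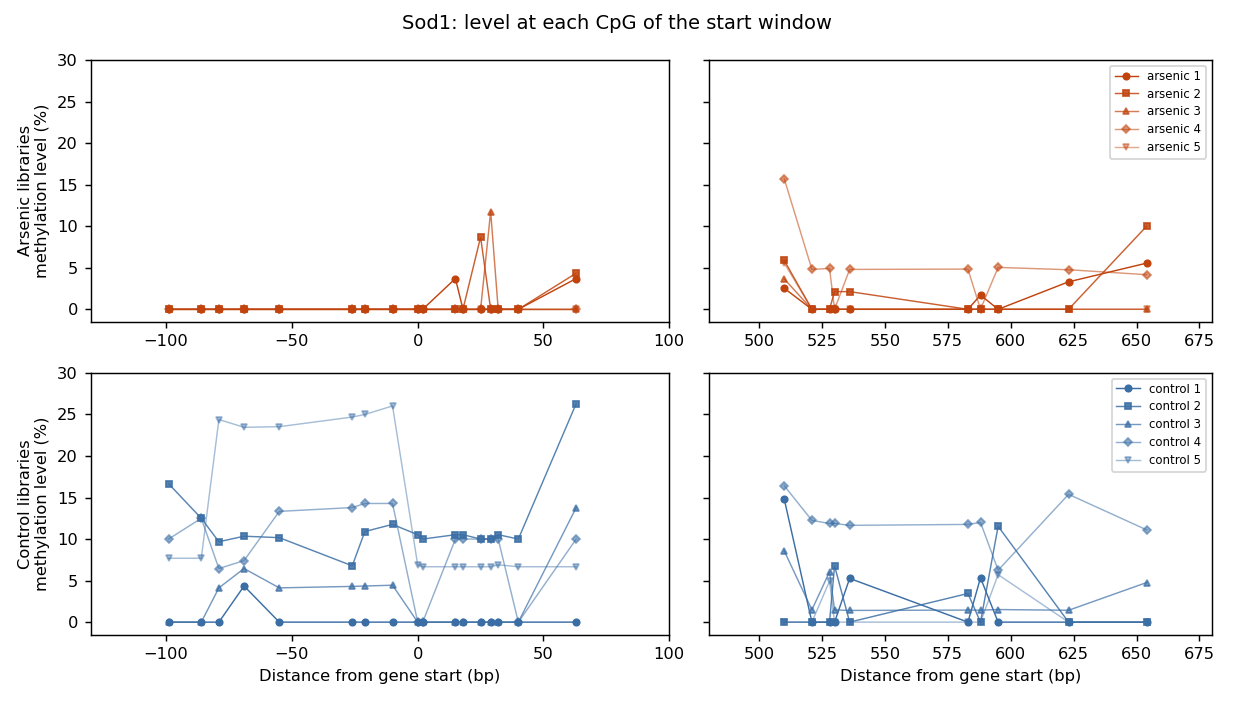
Methylation level (%) at each of the 27 covered CpGs of the Sod1 start against distance from the gene start (bp), arsenic libraries above and control libraries below, with 1 line per library and a gap between the runs. In the first run the arsenic libraries lie at or near 0 apart from single CpGs, and control libraries 2, 4 and 5 lie at 10.9%, 10.03% and 17.1% over the run.

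At single CpGs, 194 lay within the member ends, and 0 of the 335958 CpGs tested at gene ends were called (0.0%). The member CpG with the smallest p lay in the Sod1 promoter, at position 90220693 on chromosome 16, 69 bp before the start. None of 76, 69, 93, 73 and 66 reads was methylated in the arsenic libraries, which allows a level of up to 3.23% to 4.55% per library. In the control libraries 2 of 46, 6 of 58, 6 of 93, 2 of 27 and 19 of 81 reads were methylated, or 4.35%, 10.3%, 6.45%, 7.41% and 23.5%. All control libraries were above all arsenic libraries, which held for 1 of the 194 member CpGs and for 0.31% of all CpGs tested in either direction and 0.19% in this one. The difference was -11.5 points (p = 4.8e-05, adjusted p = 0.535, quasi-binomial model), and it was -7.14 points without control library 5 and -7.11 points without control libraries 4 and 5. In all, 26 of the 27 Sod1 CpGs were lower in arsenic and 14 had an unadjusted p under 0.05, all 14 lower. Of all CpGs at gene ends, 8.56% had such a p in either direction and 5.23% with a lower level. Without control libraries 4 and 5 the number of Sod1 CpGs was 7.

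Sod2, the manganese enzyme of mitochondria, lies on chromosome 17, 13007839 to 13018119, and had the most covered CpGs at its start, 58. The start was at 3.35%, 0.804%, 2.40%, 1.14% and 1.03% in the arsenic libraries, and at 1.15%, 1.33%, 2.87%, 3.55% and 6.74% in the control libraries. Arsenic library 1 was above 3 of the control libraries, and control library 5 was the highest. The means were 1.74% ± 1.09 and 3.13% ± 2.26 (arsenic, then control; SD, n = 5 each). The difference was -1.45 points (p = 0.141, adjusted p = 0.844, quasi-binomial model). Without control library 5 the difference was -0.523 points (p = 0.454, quasi-binomial model). With a minimum coverage of 20, which left 17 of the 58 CpGs, it was -1.71 points (p = 0.0105, adjusted p = 0.704, quasi-binomial model), and the window did not pass.

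At 10 of the 58 Sod2 CpGs no library had a methylated read. Of the rest, 32 were lower and 16 higher in arsenic, and 6 had an unadjusted p under 0.05, 3 in each direction. The one with the smallest p, at 13008291, averaged 0.200% ± 0.447 in arsenic and 2.89% ± 2.65 in control libraries (p = 0.0135, adjusted p = 0.543, quasi-binomial model). The body of Sod2, 6 CpGs, was methylated, at 91.9% ± 2.44 in arsenic and 92.2% ± 5.34 in control libraries (SD, n = 5 each). The difference was -0.144 points (p = 0.957, adjusted p = 0.998, quasi-binomial model). None of 14040 gene bodies was called (0.0%), 5.44% had an unadjusted p under 0.05 and 0.791% had groups that did not overlap, and no member body was among these. The start and the body of Sod2 were thus at opposite ends of the scale in every library.

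Sod3, the secreted copper-zinc enzyme of the extracellular space, lies on chromosome 5, 52363804 to 52369738. Its strand was not in the tables used, so its ends are named by coordinate. The lower end, 3 CpGs, was at 74.7%, 76.4%, 77.3%, 75.9% and 61.5% in the arsenic libraries, and at 83.1%, 71.9%, 73.9%, 74.7% and 64.8% in the control libraries. The means were 73.2% ± 6.62 in arsenic and 73.7% ± 6.56 in control libraries (SD, n = 5 each). The difference was -1.86 points (p = 0.691, adjusted p = 0.957, quasi-binomial model). Library 5 was the lowest in both groups, and no group stood apart. At its CpG with the smallest p, 52363987, the level was 59.7% ± 7.27 in arsenic and 66.2% ± 10.5 in control libraries (p = 0.154, quasi-binomial model).

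The body of Sod3 was unusual for a gene body, whose median over the table was 82.3%. Its 14 CpGs, between 4260 and 4582 bp from the lower end, were at 21.6%, 26.8%, 10.1%, 14.97% and 8.43% in the arsenic libraries, and at 13.3%, 16.1%, 19.2%, 17.6% and 12.9% in the control libraries. The arsenic libraries ranged more widely, and held both the highest and the lowest values. The means were 16.4% ± 7.76 and 15.8% ± 2.72 (arsenic, then control; SD, n = 5 each). The read-weighted difference was -0.558 points (p = 0.868, adjusted p = 0.994, quasi-binomial model). The sign of that difference depends on the weighting: with each CpG weighted equally it was 2.21 points. The flank of Sod3, 5 CpGs beyond the higher end, was at 93.0% ± 7.02 in arsenic and 92.0% ± 5.24 in control libraries (p = 0.845, adjusted p = 0.997, quasi-binomial model). Of 4507 gene flanks, 0 were called (0.0%), 6.15% had an unadjusted p under 0.05 and 0.777% had groups that did not overlap, and neither member flank was among these.

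Catalase, the heme enzyme of peroxisomes encoded by Cat, lies on the minus strand of chromosome 2, 103453904 to 103485153. Its start, 14 CpGs, was at 3.51%, 0.417%, 1.59%, 9.74% and 0.601% in the arsenic libraries, and at 7.13%, 0.171%, 0.412%, 0.842% and 3.98% in the control libraries. The highest libraries were arsenic 4 and 1 in the one group and control 1 and 5 in the other, and the groups overlapped. The means were 3.17% ± 3.87 in arsenic and 2.51% ± 3.01 in control libraries (SD, n = 5 each). The difference was 0.478 points (p = 0.816, adjusted p = 0.979, quasi-binomial model), which turned to -1.40 without arsenic library 4. Of the 14 CpGs, 7 were lower and 7 higher in arsenic, and 1 of them, at 103485649, had an unadjusted p under 0.05. There, no arsenic library had a methylated read, and neither did control libraries 1, 3 and 4, while control library 2 had 1 of 17 and control library 5 had 4 of 38. The difference was -4.10 points (p = 0.0463, adjusted p = 0.580, quasi-binomial model), and -1.19 points without control library 5 (quasi-binomial p = 0.287).

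The body of Cat, 24 CpGs and 1680 to 2850 reads per library, was the best measured member body. It was at 77.1%, 81.2%, 80.1%, 76.6% and 79.9% in the arsenic libraries, and at 78.7%, 79.0%, 74.98%, 83.6% and 79.5% in the control libraries. The means were 79.0% ± 2.03 and 79.1% ± 3.05 (arsenic, then control; p = 0.847, adjusted p = 0.994, quasi-binomial model). In every library 21 of these 24 CpGs were above 20%, so a small set read as unmethylated inside a methylated body. One of them, at 103470451, had no methylated read in any library, with 110 to 228 reads each. The others were 103469065, at 0.899% ± 2.01 in arsenic and 0% in control libraries, and 103469067, at 3.05% ± 4.82 in arsenic and 0.263% ± 0.588 in control libraries (SD, n = 5 each). These 3 positions were singled out after their values were seen, and whether the mice match the reference sequence there was not tested.

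Among the glutathione peroxidases, which use glutathione to reduce peroxides, Gpx1 had the highest of the start windows tested and the largest difference in points of the member windows. It encodes the widespread cytosolic enzyme and lies on chromosome 9, 108339080 to 108340342. Its start, 23 CpGs, was at 2.88%, 13.3%, 3.19%, 7.85% and 10% in the arsenic libraries, and at 11.1%, 13.1%, 13.3%, 6.93% and 20.2% in the control libraries. Arsenic library 2 was level with control libraries 2 and 3, and control library 4 was below 3 of the arsenic libraries. The means were 7.44% ± 4.46 in arsenic and 12.9% ± 4.82 in control libraries (SD, n = 5 each). The difference was -6.77 points (p = 0.0306, adjusted p = 0.765, quasi-binomial model), and the window did not pass. Without control library 5 it was -4.57 points (p = 0.103), and with a minimum coverage of 20, which left 7 CpGs, it was -4.54 points (p = 0.188, both quasi-binomial). Here too the filter changed the set of CpGs as well as their depth.

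Of the 23 CpGs in the Gpx1 window, 21 lay inside the gene, 125 to 381 bp after the start. None of the 11 CpGs in the Gpx1 promoter was covered. The 21 averaged 3.29% ± 3.70 in arsenic and 8.98% ± 6.08 in control libraries (SD, n = 5 each). For the Gpx3 start the means were 5.54% and 7.27%, so without its upstream CpGs Gpx1 was not the highest in arsenic. Those 21 were at 0%, 8.95%, 0.0593%, 2.99% and 4.43% in the arsenic libraries, and at 7.26%, 10.3%, 9.23%, 0.594% and 17.5% in the control libraries. A methylated read was seen at 0, 21, 1, 16 and 21 CpGs in the arsenic libraries, and at 14, 20, 21, 1 and 20 CpGs in the control libraries. The remaining CpGs of the window lay upstream and are also within the end window of the neighbouring gene Rhoa, which ends 1137 bp before Gpx1. With 1 further CpG of the flank they averaged 35.9% ± 5.61 in arsenic and 39.6% ± 1.92 in control libraries (SD, n = 5 each).

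**Figure D3:**
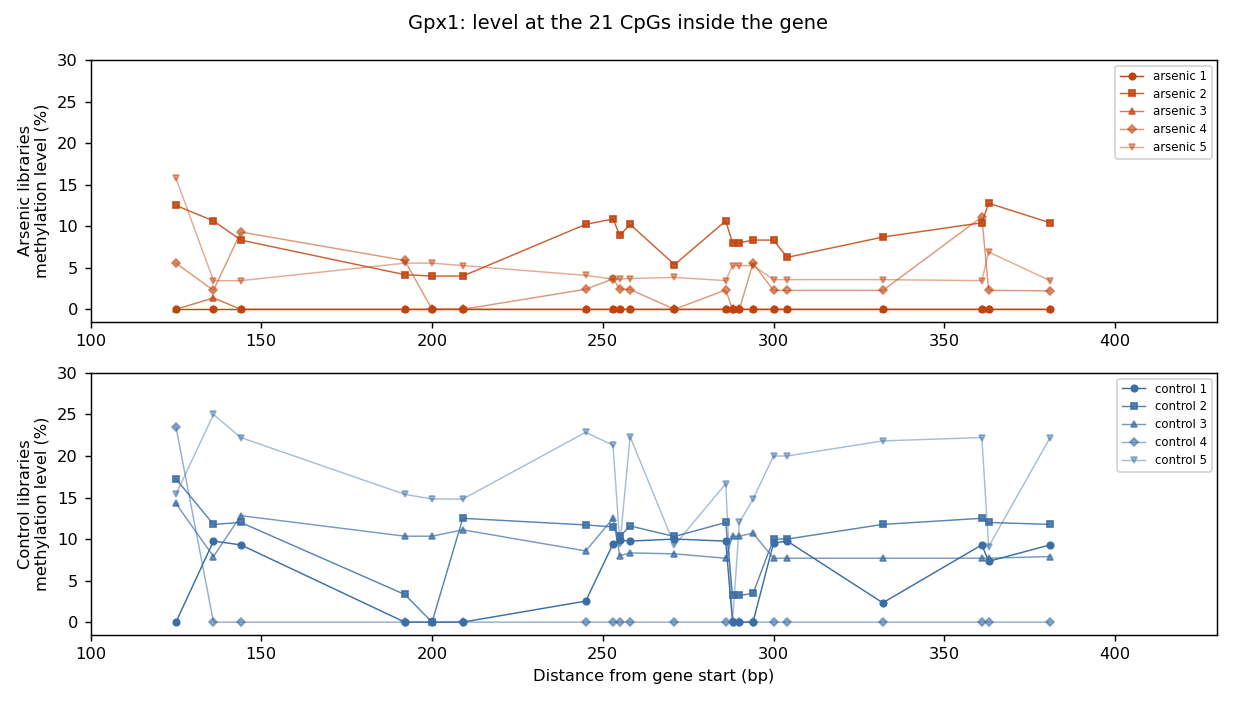
Methylation level (%) at the 21 covered CpGs inside Gpx1 against distance from the gene start (bp), arsenic libraries above and control libraries below, with 1 line per library. Arsenic libraries 1 and 3 and control library 4 lie at or near 0 at almost every CpG, and control library 5 is the highest at 17.5% over the run.

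In Gpx1, 22 of the 23 CpGs were lower in arsenic and 13 had an unadjusted p under 0.05, all of them lower, against 8.56% of all CpGs at gene ends in either direction and 5.23% lower, and 0 were called. That number was 5 without control libraries 4 and 5, and 1 without control library 5. At the one with the smallest p, 108339351, methylated reads were 0 of 84, 5 of 93, 0 of 140, 0 of 83 and 2 of 52 in the arsenic libraries. They were 8 of 80, 10 of 97, 6 of 73, 0 of 56 and 10 of 108 in the control libraries. The groups overlapped through control library 4. The means were 1.84% ± 2.58 in arsenic and 7.56% ± 4.30 in control libraries (SD, n = 5 each). The difference was -6.66 points (p = 0.00636, adjusted p = 0.537, quasi-binomial model).

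Gpx3 encodes the peroxidase secreted into plasma and lies on chromosome 11, 54902854 to 54910387. Its start, 9 CpGs, was at 9.92%, 1.98%, 8.04%, 4.28% and 3.49% in the arsenic libraries, and at 9.66%, 6.85%, 5.62%, 3.45% and 10.8% in the control libraries. The groups covered almost the same range. The means were 5.54% ± 3.31 in arsenic and 7.27% ± 2.99 in control libraries (SD, n = 5 each). The difference was -1.38 points (p = 0.498, adjusted p = 0.928, quasi-binomial model). The far end, 4 CpGs next to the gene Tnip1, was at 92.0% ± 3.78 in arsenic and 91.1% ± 2.43 in control libraries (p = 0.676, adjusted p = 0.955, quasi-binomial model). None of the 13 CpGs at the ends of Gpx3 had an unadjusted p under 0.05, and the smallest was 0.160 at 54910896, at 97.6% ± 2.30 in arsenic and 100% in all control libraries (quasi-binomial model).

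Gpx4 lies on chromosome 10, 80047166 to 80056439, and was methylated at its outermost start, unlike the 7 members with a start window. Only 2 CpGs were covered there, 215 and 92 bp before it, so no window was tested. At the one with the smaller p, 80047074, the level was 89.1% ± 7.23 in arsenic and 92.8% ± 8.04 in control libraries (p = 0.404, quasi-binomial model). Together the CpGs were at 90.2% ± 3.83 in arsenic and 90.1% ± 5.23 in control libraries (SD, n = 5 each), from 34 to 96 reads per library. RefSeq lists further starts for the gene 6399, 6493 and 6845 bp inside the outermost one, and their promoters hold 31, 26 and 29 CpGs, against 3 in the outermost. None of those CpGs was covered.

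The nearest covered CpGs to the inner starts of Gpx4 were 7 CpGs from 7076 to 7291 bp. They were at 7.02%, 4.30%, 4.05%, 1.25% and 3.16% in the arsenic libraries, and at 4.22%, 2.68%, 4.36%, 1.07% and 2.02% in the control libraries, so a low stretch of this gene lay just after the inner starts. The 12 CpGs from 3832 to 4313 bp, between the outer and inner starts, were at 80.8% ± 4.98 in arsenic and 81.3% ± 1.63 in control libraries. The first of these 12, at 80050998, was apart from its neighbours at 4.65% ± 4.27 in arsenic and 2.87% ± 4.41 in control libraries (SD, n = 5 each), and was singled out after its value was seen. The body as a whole, 19 CpGs, mixes these levels and averaged 49.8% ± 4.73 in arsenic and 48.8% ± 2.38 in control libraries (SD, n = 5 each). The difference was 0.743 points (p = 0.771, adjusted p = 0.991, quasi-binomial model). The flank, 4 CpGs beyond the far end and inside Sbno2, was at 76.7% ± 9.82 in arsenic and 74.3% ± 4.60 in control libraries (p = 0.359, adjusted p = 0.942, quasi-binomial model).

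**Figure D4:**
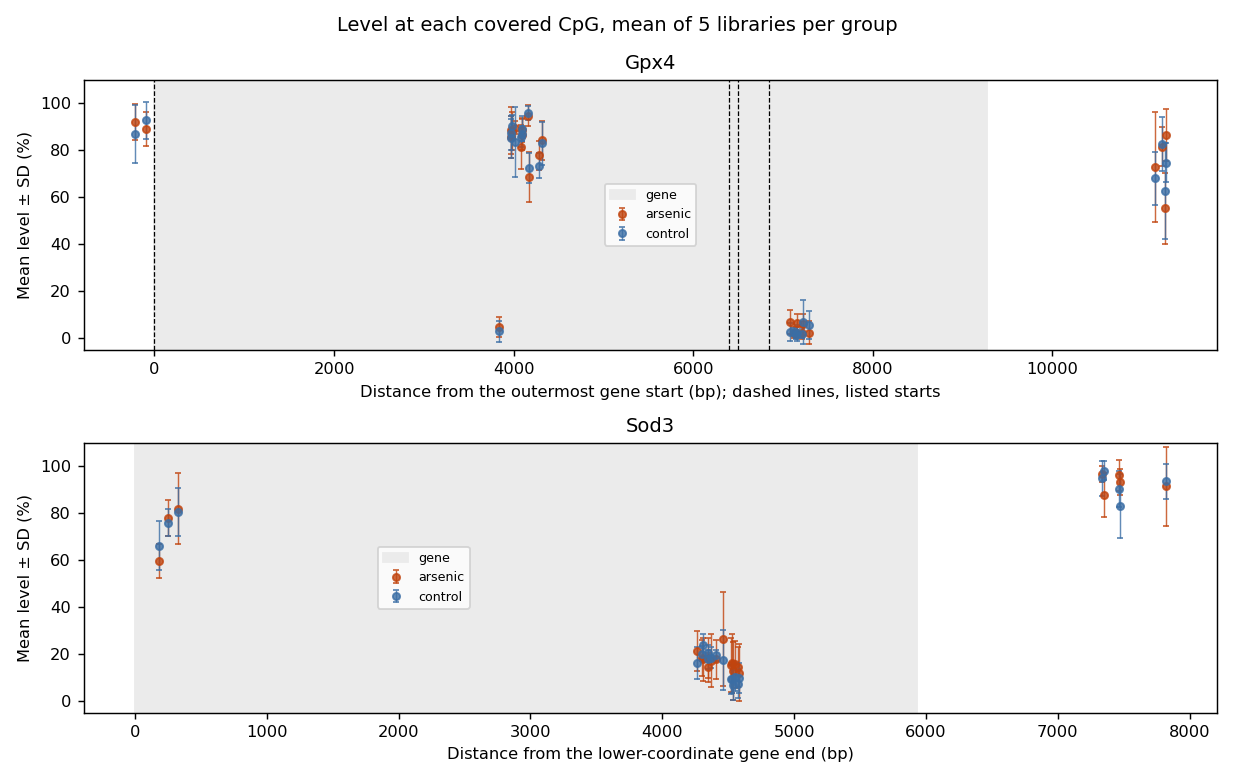
Mean methylation level (%) with SD bars (n = 5 each) at every covered CpG of Gpx4 (above) and Sod3 (below), arsenic in orange and control in blue, against distance (bp) from the outermost gene start or the lower-coordinate end, with the gene in grey and the listed Gpx4 starts as dashed lines. Gpx4 is near 90% at its outermost start and near 4% just after its inner starts, and the low CpGs of Sod3 lie inside the gene.

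Peroxiredoxins reduce peroxides through a reactive cysteine and are recycled mainly by thioredoxin. Prdx1, the abundant enzyme of cytosol and nucleus, lies on chromosome 4, 116685599 to 116700000, where the long noncoding RNA gene AV051173 overlaps its start. Its start, 38 CpGs, was at 0.888%, 0.726%, 6.44%, 1.17% and 1.36% in the arsenic libraries, and at 1.34%, 2.64%, 2.75%, 4.77% and 3.09% in the control libraries. Arsenic library 3 was above all others, and the remaining arsenic libraries lay near or below control library 1, the lowest of its group. The means were 2.12% ± 2.43 in arsenic and 2.92% ± 1.23 in control libraries (SD, n = 5 each). The difference was -0.654 points (p = 0.576, adjusted p = 0.942, quasi-binomial model). Without arsenic library 3 it was -1.75 points (p = 0.00831, adjusted p = 0.772, quasi-binomial model). At 8 of the 38 CpGs no library had a methylated read, and none had an unadjusted p under 0.05. At the one with the smallest p, 116685653, control library 3 alone had methylated reads, 4 of 38 (p = 0.0831, quasi-binomial model).

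Prdx3, the mitochondrial peroxiredoxin, lies on the minus strand of chromosome 19, 60864066 to 60874538, and had the lowest start of the members. Its 12 CpGs were at 0.118%, 0.0844%, 2.47%, 0.484% and 0.134% in the arsenic libraries, and at 1.85%, 0.717%, 0.603%, 0% and 0.253% in the control libraries. Arsenic library 3 and control library 1 stood highest, and no order of the groups was seen. The means were 0.659% ± 1.03 in arsenic and 0.685% ± 0.711 in control libraries (p = 0.985, quasi-binomial model). At the CpG with the smallest p, 60874489, methylated reads were seen in arsenic libraries 3 and 4, 3 of 95 and 2 of 99, and in no control library (p = 0.0803, quasi-binomial model). The body, 5 CpGs, was at 83.2%, 87.0%, 82.6%, 61.7% and 85.7% in the arsenic libraries, and at 75.7%, 79.8%, 77.6%, 87.7% and 78.1% in the control libraries. Apart from arsenic library 4 the bodies were within a narrow band, and the means were 80.04% ± 10.4 in arsenic and 79.8% ± 4.66 in control libraries (p = 0.908, adjusted p = 0.995, quasi-binomial model).

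Prdx4, the peroxiredoxin of the endoplasmic reticulum and the secretory pathway, lies on the minus strand of the X chromosome, 155323918 to 155342272. It had 4 covered CpGs, all at its far end, and none at a start. The far end was at 87.5%, 92.3%, 90.6%, 100% and 96.4% in the arsenic libraries, and at 94.1%, 93.7%, 98.6%, 100% and 97.1% in the control libraries. Arsenic libraries 1, 2 and 3 were below every control library, and arsenic library 4 was at the top with control library 4. The means were 93.4% ± 4.91 in arsenic and 96.7% ± 2.76 in control libraries (SD, n = 5 each). The difference was -3.86 points (p = 0.2197, adjusted p = 0.861, quasi-binomial model), from 56 to 128 reads per library. Its CpG with the smallest p, 155323681, was at 87.3% ± 11.3 in arsenic and 95.8% ± 7.22 in control libraries (p = 0.164, quasi-binomial model).

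**Figure D5:**
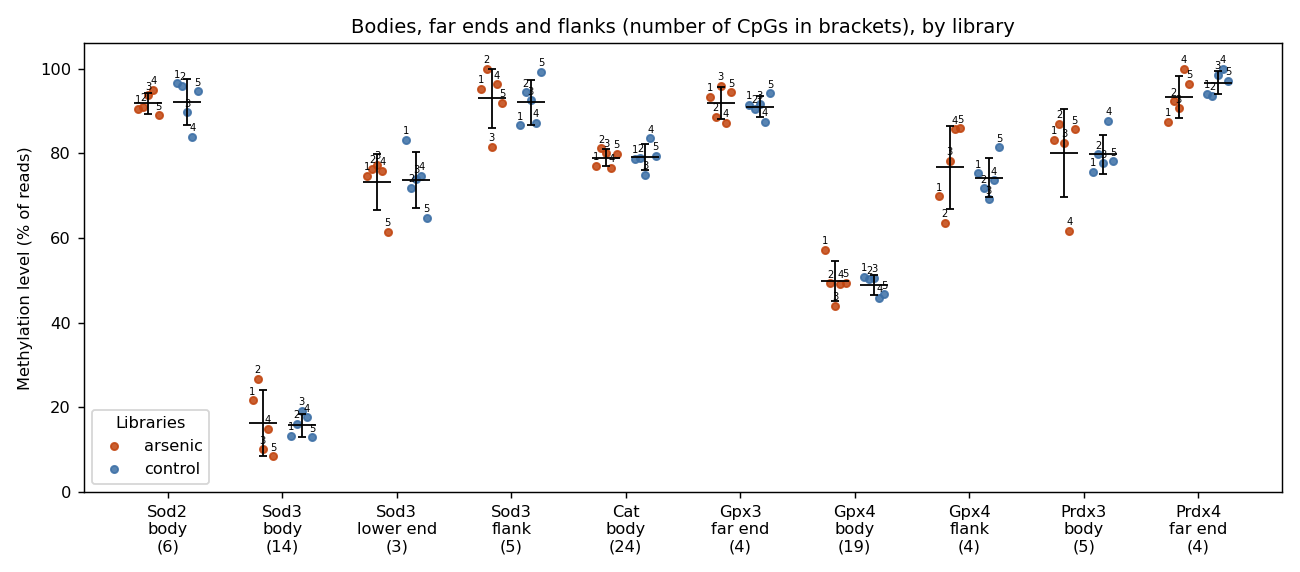
Methylation level (% of reads) of the member bodies, flanks and ends other than starts in each library, arsenic in orange and control in blue, numbered by library, with the mean as a line and the SD as a bar (n = 5 each); the number of CpGs is in brackets. Most are above 70%, with the Sod3 body at 16.4% and 15.8% and the Gpx4 body at 49.8% and 48.8% in arsenic and control libraries.

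Of 10 genes, 9 had an end window. Set side by side, 8 of the 10 member end windows were lower in arsenic and 2 were higher, with a median difference of -1.42 points. Of all 17721 gene ends, 56.0% were lower and their median was -0.214 points. Of the 8959 gene starts with a mean level under 20%, the class of 7 of the member windows, 59.7% were lower, with a median of -0.289 points. The 2 windows with an unadjusted p under 0.05 were the starts of Sod1 and Gpx1, both lower, and 4.38% of all gene ends had such a p with a lower level in arsenic. No member end had groups that did not overlap, against 0.937% of all gene ends. Over the 194 member CpGs at ends, 130 were lower, 46 higher and 18 without a methylated read in any library. Of these, 34 had an unadjusted p under 0.05, 31 lower and 3 higher. Among all CpGs at gene ends, 5.23% and 3.33% had such a p in these directions. Of the 31, 27 lay in Sod1 and Gpx1, where CpGs of a run share reads and are not independent. Without control libraries 4 and 5 the 34 became 15.

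No library was the highest at all 7 member starts, but control library 5 had the highest mean over them. Averaged over the 7 member starts, the libraries were at 3.04%, 2.59%, 3.49%, 3.92% and 2.40% in arsenic, and at 4.83%, 4.51%, 4.06%, 4.44% and 7.83% in control. Sod1 and Gpx1 differed the most of the 7 starts in this mean. Over the other 5 starts the libraries were at 3.56%, 0.803%, 4.19%, 3.36% and 1.32% in arsenic, and at 4.22%, 2.34%, 2.45%, 2.52% and 4.97% in control, and the groups overlapped. Control library 5 held the top value at 3 of the 7 starts. Arsenic library 3 held the top value at 2 starts, Prdx1 and Prdx3. Control library 5 also had the highest mean level over all CpGs at gene ends, and the part of that in the member values was not tested. Ends of genes that mark Sertoli cells, the somatic cells that nurse the germ cells, also had a lower mean in arsenic, with overlapping groups: over Sox9, Clu and Amh the libraries averaged 1.64% to 4.23% in arsenic and 3.13% to 6.51% in control. Their part in the Sod1 and Gpx1 differences was not tested.

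The spread between libraries was itself large at some starts. From the lowest to the highest library, Gpx1 covered 17.4 points and Sod1 11.3 points. That put them in percentiles 94.8 and 84.0 among the 8959 gene starts with a mean level under 20%. Prdx3, with 2.47 points, was in percentile 10.1.

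Genes that work beside these enzymes were read the same way, as 34 end windows of 30 genes out of 42 in 4 lists, and 0 were called. Of 7 windows of other peroxidases, 5 were higher and 2 lower in arsenic, with a median of 0.832 points. The smallest p values there were at the far end of Prdx5, at 94.8% ± 1.86 in arsenic and 92.3% ± 2.20 in control libraries (p = 0.108), and at the start of Gpx7, at 1.23% ± 0.492 and 2.28% ± 2.29 (arsenic, then control; p = 0.297; both quasi-binomial model). Prdx5 is a peroxiredoxin of several compartments and Gpx7 a peroxidase of the endoplasmic reticulum.

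Of 12 windows of thioredoxin and glutaredoxin genes, which recycle peroxiredoxins and protein thiols, 9 were lower and 3 higher in arsenic, with a median of -0.449 points. In this list 3 had an unadjusted p under 0.05, all lower, against 4.38% of all gene ends with such a p and a lower level: the starts of Txnip, Glrx2 and Glrx. Txnip, which encodes an inhibitor of thioredoxin, was at 0.898% ± 0.361 in arsenic and 2.97% ± 2.39 in control libraries (p = 0.0161, adjusted p = 0.722, quasi-binomial model). Glrx2, a mitochondrial glutaredoxin, was at 0.982% ± 0.546 in arsenic and 3.19% ± 2.51 in control libraries (p = 0.0365, adjusted p = 0.765, quasi-binomial model). Without control libraries 4 and 5 the differences were -1.03 points for Txnip (quasi-binomial p = 0.156), against -2.10 with all libraries, and -0.526 points for Glrx2 (quasi-binomial p = 0.342), against -1.93. Without control library 5 alone, that of Txnip was -1.24 points (quasi-binomial p = 0.0641).

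In the list of glutathione synthesis and of copper and selenium delivery, 4 of 8 windows were higher and 4 lower, with a median of 0.0943 points. Gss, glutathione synthetase, was at 1.58% ± 1.08 in arsenic and 1.003% ± 0.814 in control libraries (p = 0.180, quasi-binomial model). The lower end of Gclc, the catalytic subunit of glutamate-cysteine ligase, was at 2.06% ± 0.598 in arsenic and 2.85% ± 1.61 in control libraries (p = 0.260, quasi-binomial model). Of 7 windows of genes that produce superoxide or peroxide, 6 were higher and 1 lower, with a median of 2.09 points. The far end of Noxo1, an organizer subunit of NADPH oxidase, was at 96.2% ± 2.31 in arsenic and 93.9% ± 2.71 in control libraries (p = 0.174, quasi-binomial model). The start of Noxa1, an activator subunit, was at 11.3% ± 5.09 in arsenic and 8.06% ± 3.05 in control libraries (p = 0.2198, quasi-binomial model).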

How the data were processed

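Testis DNA of 5 arsenic and 5 control libraries was measured by RRBS. The submitters' processing notes name Trim Galore 0.6.5, Bismark 0.22.3, methylKit 1.22.0 and mm10 without settings. The deposited table gives, per the file headers, read counts per cytosine and library (all, methylated and unmethylated), not normalised, as methylKit writes them when it unites libraries. Only cytosines with at least 10 reads in every library are in it.

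Both strands of a CpG were summed where present. Genes were placed with RefSeq on GRCm38.p6. The quasi-binomial model had a Pearson dispersion squeezed across windows as in limma and not under 1, an F test (two-sided) and Benjamini-Hochberg adjustment over all windows of a kind, or over all CpGs at gene ends. Features with identical reads in all libraries (all or no reads methylated) were given a p of 1. Named in the text were all 10 members, the CpG with the smallest p in each, and the 2 ends with the smallest p of each further list. The members and lists were chosen with earlier results of these data known. Alternatives were a minimum coverage of 20, limma, the replicate block, windows of 500 bp, equal weight per CpG, each strand on its own, a minimum difference of 10 points, and leaving out libraries.

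Depth was 54 to 3320 reads per library in the member windows tested, and 34 to 96 at the 2 CpGs of the outermost Gpx4 start. Without molecular identifiers in the reads, the limit given for a count of 0, which is 3 counts over the reads, reflects counting error alone. Python 3.11.15 with numpy 2.4.6, scipy 1.17.1, pandas 2.3.3 and matplotlib 3.10.9, and R 4.3.3 with limma 3.58.1, were used.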

Additional observations from a re-analysis of the deposited data

Results flagged for a closer look

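In 5 of 34 groups of 5 libraries, 1 library's gap to the nearest of the others was above Dixon's critical value of 0.710 times the range of the group, and chance gives about 1 in 20 such groups. All 5 were arsenic libraries. At the Sod1 start arsenic library 4 was at 2.79%, above the other arsenic libraries. At the Prdx1 start arsenic library 3 was at 6.44%, and at the Prdx3 start the same library was at 2.47%, each the highest of its group. At the lower end of Sod3 arsenic library 5 was at 61.5%, and in the Prdx3 body arsenic library 4 was at 61.7%, each the lowest of its group.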

How the results depend on the processing

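Differences were recomputed 531 times under other settings. Of these, 489 kept their sign, 2 came to 0 and 40 changed sign, 37 of them with a p above 0.05 and 3 without a test; none passed the adjusted threshold. Sod1 and Gpx1 stayed lower in arsenic under every setting run, at -6.70 to -4.17 and -8.33 to -4.57 points with 1 library left out. The number of windows called with 1 library left out was 0 to 1 for gene bodies (1 without control library 5) and 0 to 1 for gene flanks (1 without control library 3). It was 1 gene end with limma and 1 gene body without control libraries 4 and 5; these changes were not in members, and the cause was not tested. The differences that changed sign with 1 library left out ranged from -3.30 to 1.43 points (Sod3 lower end), -1.40 to 1.77 (Cat start), -0.470 to 0.278 (Prdx3 start), -1.99 to 0.757 (Sod2 body), -3.16 to 1.38 (Sod3 body), -0.953 to 1.221 (Cat body), -1.225 to 2.50 (Gpx4 body), -1.70 to 5.18 (Prdx3 body) and -0.891 to 3.27 (Sod3 flank). Other changes of sign were 0.298 points at the Gclc lower end with windows of 500 bp, 0.217 at the Glrx2 start with a coverage of at least 20, with each CpG weighted equally -0.401 at the Gpx3 far end, 0.161 at the Prdx3 start and 2.21 in the Sod3 body, -0.833 in the Gpx4 body without control libraries 4 and 5, and a log2 ratio of -0.0201 in the Cat body with limma. With the replicate block, whose difference weights libraries equally, the Sod3 body was at 0.563 and the Cat body at -0.154 points. Same-numbered libraries showed little shared deviation (correlations -0.0252 to 0.0260). The labels do not say whether the numbers pair the libraries, and correlations alone cannot decide it. The block left the calls at 0 in gene ends, bodies, flanks and CpGs, and moved gene ends with an unadjusted p under 0.05 to 1620, against 1123. Arsenic libraries correlated best with their own number in 2 of 5 cases at gene ends, and libraries 1 and 2 did so in gene bodies. With 500 bp windows the Sod1 start was at -8.57 points (quasi-binomial p = 0.000585, adjusted p = 0.503). A coverage of 20 left 65 of the 194 member CpGs. Depth limits the windows with few reads, such as the Prdx3 body and the Prdx4 far end.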
